A study of Mus musculus with 17 samples.

Results

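The genes described here are 8 genes of zinc handling in mouse intestinal organoids: the metallothioneins Mt1 and Mt2, the transporters Slc30a1, Slc30a2 and Slc30a10 of the SLC30 family, and Slc39a4, Slc39a5 and Slc39a7 of the SLC39 family. They were taken by symbol, as a list drawn up with earlier results of these data known, from the 26422 genes listed in at least 1 of 17 single-cell libraries, and all 8 were listed in every library. The libraries were made by Seq-Well S3, which captures single cells on barcoded beads in microwells and counts their transcripts by unique molecular identifiers (UMIs). The organoids were grown from small intestinal crypts of C57BL/6 mice. At day 0 they were in ENR+CV (EGF, Noggin and R-spondin 1 with CHIR99021 and valproic acid), a medium that enriches for stem cells, with 2 libraries. From day 0.25 to day 6 they were in ENR+CD (CHIR99021 and DAPT in place of CHIR99021 and valproic acid), which drives differentiation towards Paneth cells, without KPT-330 in 7 control libraries and with 160 nM KPT-330, an inhibitor of the nuclear exporter XPO1, in 8 libraries. Day 6 had 2 libraries in each condition and day 3 had 2 libraries with KPT-330, while each other day had 1 library per condition. Control libraries had replicate number 1 at days 0.25 and 1 and number 2 at days 2, 3 and 4. The cells of a library came from pooled organoids, and the labels do not say whether replicate numbers stand for separate cultures or mice, so p-values measure only the spread between these libraries.

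Zinc enters intestinal cells through SLC39 (ZIP) proteins, which move the metal into the cytosol, and leaves it through SLC30 (ZnT) proteins, which move it out of the cell or into vesicles. Metallothioneins are small cysteine-rich proteins that bind zinc in the cytosol, and the zinc-sensing transcription factor MTF1 induces them, together with the exporter Slc30a1, through short metal response elements in their promoters. Paneth cells are known for zinc-rich granules, and enterocytes for the uptake of dietary zinc.

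In GENCODE vM21 on mm10, Mt1 (ENSMUSG00000031765.8) lies at chr8:94179082-94180327 and Mt2 (ENSMUSG00000031762.7) at chr8:94172664-94173568, next to Mt3 and to Mt4 (ENSMUSG00000031757.7, chr8:94137197-94139031), all on the plus strand. Slc30a1 (chr1:191906767-191913247), Slc30a2 (chr4:134343181-134354484) and Slc30a10 (chr1:185454848-185468762) are on the plus strand as well. Slc39a4 (chr15:76612383-76617384), Slc39a5 (chr10:128395931-128401229) and Slc39a7 (chr17:34028269-34031682) are on the minus strand. RefSeq promoter windows of GRCm38.p6, 250 bases before to 50 bases after a start, matched 7 of the 8 members, all but Slc39a4. They were searched on both strands for TGCACNC and TGCGCNC, the core of the metal response element, and a match describes these letters only. At least 1 match was present in 25.7% of all 32851 promoter windows, 2 or more in 7.11% and 4 or more in 0.517%. The Mt2 window held 4 matches, the Mt1 and Slc30a10 windows 3 each, the Slc30a1 and Slc30a2 windows 2 each, and the Slc39a7 window 0. Slc39a5 has 2 windows, with 1 and 0 matches, and the Mt4 window held 1. Of the Slc30a10 matches, a pair on opposite strands overlap. The windows below are those of the metallothionein genes, of which Mt2 was higher and Mt4 lower with KPT-330, and of Slc30a1, another gene induced by MTF1, all on the plus strand and 5′ to 3′, with the matches in capitals. They span chr8:94178839-94179138 for Mt1, chr8:94172368-94172667 for Mt2, chr8:94136954-94137253 for Mt4 and chr1:191906531-191906830 for Slc30a1.
Mt1: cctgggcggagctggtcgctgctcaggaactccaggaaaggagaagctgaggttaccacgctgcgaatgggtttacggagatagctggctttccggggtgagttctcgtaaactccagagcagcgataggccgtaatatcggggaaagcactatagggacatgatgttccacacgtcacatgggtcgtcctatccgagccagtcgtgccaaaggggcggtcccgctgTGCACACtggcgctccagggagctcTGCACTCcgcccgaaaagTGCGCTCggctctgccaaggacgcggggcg
Mt2: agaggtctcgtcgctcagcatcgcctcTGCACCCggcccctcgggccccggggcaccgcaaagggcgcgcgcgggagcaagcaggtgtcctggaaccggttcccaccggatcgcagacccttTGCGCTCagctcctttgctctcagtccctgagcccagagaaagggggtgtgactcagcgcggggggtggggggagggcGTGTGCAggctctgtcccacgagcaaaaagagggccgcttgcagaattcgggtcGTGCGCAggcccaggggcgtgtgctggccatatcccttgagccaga
Mt4: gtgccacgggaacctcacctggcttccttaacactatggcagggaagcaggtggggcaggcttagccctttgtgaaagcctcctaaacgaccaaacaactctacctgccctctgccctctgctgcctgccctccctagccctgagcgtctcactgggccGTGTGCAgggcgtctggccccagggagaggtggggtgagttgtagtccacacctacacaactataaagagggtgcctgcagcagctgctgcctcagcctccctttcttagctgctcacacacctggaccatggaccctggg
Slc30a1: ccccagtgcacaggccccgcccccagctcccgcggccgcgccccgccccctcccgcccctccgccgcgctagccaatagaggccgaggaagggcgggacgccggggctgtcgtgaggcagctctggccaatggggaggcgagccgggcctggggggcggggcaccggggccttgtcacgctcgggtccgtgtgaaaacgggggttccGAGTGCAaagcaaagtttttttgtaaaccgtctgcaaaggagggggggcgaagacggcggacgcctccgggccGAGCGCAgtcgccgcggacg

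Counts were taken from the 19877 cells that the authors kept, of 26229 barcodes, and 14 barcodes occurred in more than 1 library. Libraries held 3458887 to 12433109 UMIs, with a median of 2676 to 8463 UMIs per cell. Levels are given in CPM, UMIs per 1000000 UMIs of a library or of a class of its cells, while differences between groups are on the log2 scale after scaling the libraries (TMM factors, edgeR). As a check of the treatment, Xpo1, the target of KPT-330, was higher with the drug at 6 of 6 days, by 1.504 ± 0.0857 on the log2 scale (SE, 15 libraries; adjusted p = 7.76e-07, edgeR). The epithelial markers Epcam, Krt8 and Cdh1 summed to 1720.3 to 2827 CPM, and 5 markers of blood, stroma and endothelium (Ptprc, Cd3e, Col1a1, Col3a1, Pecam1) to at most 2.25. Cells were placed in 3 ranges of marker levels, which are not cell types: 4626 Lyz1-high cells, with at least 100 UMIs of the Paneth cell gene Lyz1 per 10000, 2679 enterocyte-marker-high cells, with at least 100 UMIs per 10000 from 8 enterocyte genes and less Lyz1, and 12572 remaining cells. Lyz1 lay between 50 and 200 per 10000 in 2025 cells, close to the limit, and the remaining cells still held a median of 31574 CPM of 10 other Paneth genes in control libraries. Replicate 1 of KPT-330 at day 6 stood apart in Lyz1, with a median of 155 UMIs per 10000 over its cells and 19.9 in its enterocyte-marker-high cells, against at most 87.0 and 3.73 in any other library.

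**Figure D1:**
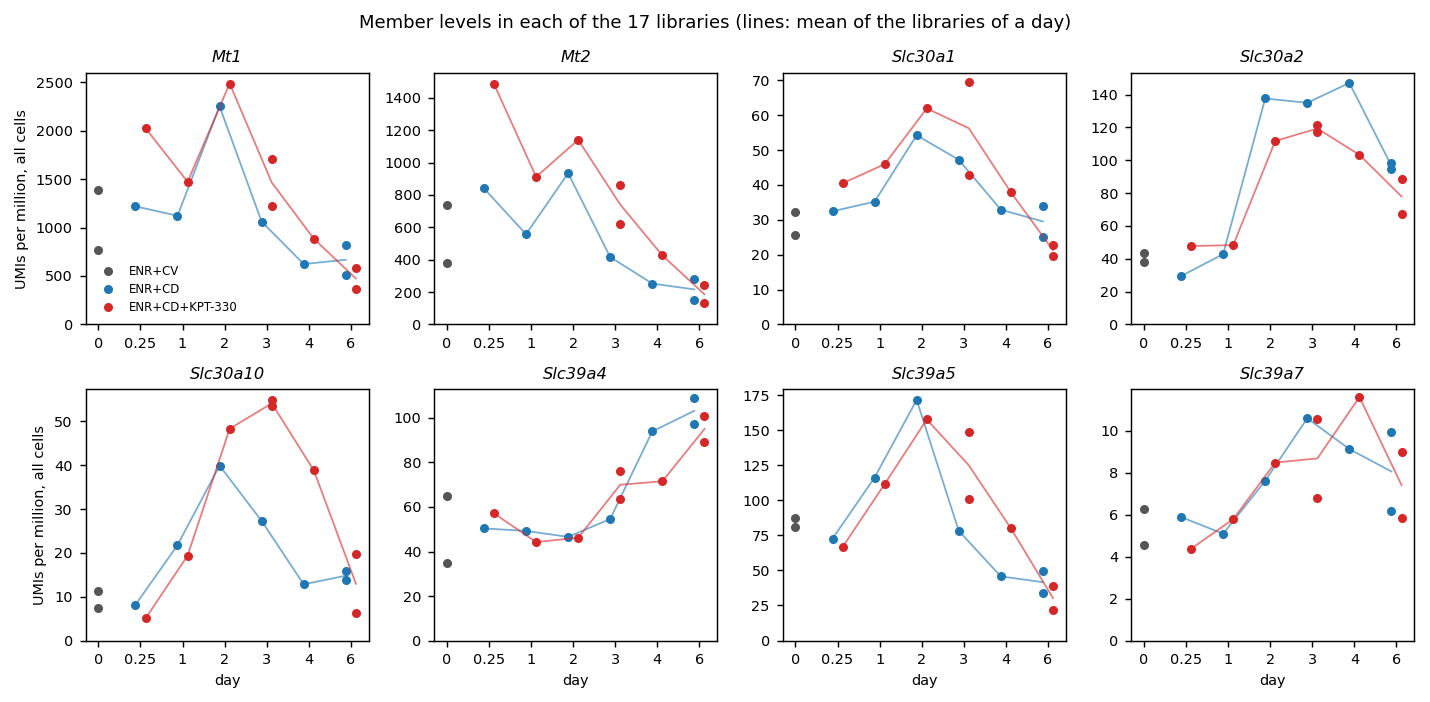
Level of each member in CPM over all cells (vertical axes, starting at 0) against day (evenly spaced categories), with 1 point per library, grey for ENR+CV, blue for ENR+CD control and red for ENR+CD with KPT-330, and lines through the mean of each day. Mt2 stands higher in every KPT-330 library than in the control library of the same day from day 0.25 to day 4, and Slc39a4 is highest at day 6, where the 2 conditions lie between 89.3 and 109 CPM.

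The first question was how the genes behaved as untreated organoids left the stem cell medium, where medium and time change together and cannot be told apart. Between days 1 and 2 the replicate number changes as well, so that step cannot be told apart from a difference between replicates. The control libraries of days 0.25 and 1 listed 21001 and 21652 genes, and those of days 2 to 4 listed 16616 to 17422. Slc30a2, which loads zinc into secretory vesicles and is the transporter of Paneth cell granules, was at 37.9 and 43.7 CPM in the day 0 libraries and at 29.4 and 42.8 at days 0.25 and 1. It stood at 138, 135 and 147 at days 2, 3 and 4 and at 94.7 and 98.5 in the day 6 libraries, so that no library from day 2 on overlapped with the earlier ones. Slc39a4, the importer of the luminal cell surface, was at 34.8 and 64.9 CPM at day 0. Between days 0.25 and 3 it ranged from 46.6 to 54.6, and it stood at 94.0 at day 4 and at 97.3 and 109 at day 6, above every earlier library. Day 6 against day 0, Slc30a2 rose from 40.8 ± 4.04 to 96.6 ± 2.66 CPM (SD, n = 2 each), a log2 difference of 1.36 ± 0.15 (SE; adjusted p = 7.62e-05, edgeR quasi-likelihood test). Slc39a4 rose from 49.8 ± 21.2 to 103 ± 8.33 CPM (SD, n = 2 each), a log2 difference of 1.17 ± 0.22 (SE; adjusted p = 0.00172, edgeR).

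The metallothioneins and Slc39a5, the importer of the basolateral surface, had another course. Mt2 was at 378 and 738 CPM at day 0, at 840.5, 557, 934, 416 and 252 at days 0.25, 1, 2, 3 and 4, and at 279 and 153 at day 6. Mt1 was at 773 and 1384 at day 0, at 1220.1, 1122, 2253, 1062 and 623 at the same days, and at 825 and 511 at day 6. Slc39a5 was at 80.8 and 87.3 at day 0, at 72.7, 116, 172, 78.3 and 45.8, and at 49.6 and 33.6 at day 6. For each of these 3 genes the day 2 library was the highest of the 9, and that library also held the largest share of enterocyte-marker-high cells, 25.3% against 2.67% to 9.43% in the 8 others. Slc30a10, known as an exporter of manganese despite its family, was likewise highest at day 2, at 39.9 CPM, against 7.35 and 11.4 at day 0 and 13.8 and 15.8 at day 6. The part of the cell mix in these courses was not tested here, and fewer cells of a type and less RNA per cell cannot be told apart in sums over a library.

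Mt2 fell from day 0 to day 6 by 1.21 ± 0.41 on the log2 scale (SE; 558 ± 255 to 216 ± 88.7 CPM, SD, n = 2 each; adjusted p = 0.037, edgeR). Slc39a5 fell by 0.87 ± 0.32 (SE; 84.0 ± 4.62 to 41.6 ± 11.3 CPM, SD, n = 2 each; adjusted p = 0.0475, edgeR). With all libraries the Mt2 call was lost in DESeq2 (-1.21, adjusted p = 0.119). That of Slc39a5 was lost in edgeR with DESeq2 size factors (adjusted p = 0.0514) and in cells with at least 1000 detected genes (adjusted p = 0.054). Both calls also rest on single libraries. Without replicate 2 of day 0 the Mt2 difference was -0.78 (adjusted p = 0.259) and without replicate 2 of day 6 it was -0.83 (adjusted p = 0.251), while the Slc39a5 difference lost its call without any of 3 of the 4 libraries (adjusted p = 0.125 to 0.27 in edgeR). Mt1 (-0.54 ± 0.37), Slc30a10 (0.83 ± 0.46), Slc39a7 (0.66 ± 0.37) and the plasma membrane exporter Slc30a1 (0.18 ± 0.26) did not pass the test, though Slc30a10 did without either KPT-330 library of day 6, which share the estimate of spread (0.83 and 0.86, adjusted p = 0.0241 and 0.0217). So 4 of 8 members passed, 2 higher and 2 lower, where 39.9% of the 13455 genes tested passed, 19.7% higher and 20.2% lower.

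Tested for any difference among the 7 untreated days, 5 of 8 members passed (Slc30a2, adjusted p = 2.87e-05, Slc39a4, 0.00749, Slc39a5, 0.0145, Slc30a10, 0.0328, and Mt2, 0.0361, edgeR), where 35.0% of all genes did. Without replicate 2 of day 6 the count was 2 (Slc30a2 and Slc39a5), and without replicate 2 of day 0 it was 3. In DESeq2 it was 4, without Mt2. Slc30a1 ranged from 25.02 to 54.3 CPM over these 9 libraries, and Slc39a7, which releases zinc from the endoplasmic reticulum, from 4.57 to 10.6. Neither passed (adjusted p = 0.168 and 0.368), and Mt1 had an adjusted p of 0.0832. Fitted on the 9 untreated libraries alone, 7 of 8 members passed, Mt1 and Slc30a1 among them, and on library totals 6 did, Mt1 among them. The share of all genes that passed in these 2 fits is not given here. The 2 counts can therefore not be set against a share, and the 35.0% belongs to the main fit.

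The next question was which cells held the transcripts. In control libraries the enterocyte-marker-high cells, 8.93% of cells and 13.7% of UMIs, held 86.2% of the Slc30a10 UMIs, 63.4% of those of Slc39a5, 51.1% of Mt1, 43.2% of Mt2 and 41.9% of Slc30a1. They held 14.3% of the Slc30a2 and 13.9% of the Slc39a4 UMIs, close to their share of all UMIs. The Lyz1-high cells, with 18.6% of all UMIs, held 31.2% of the Slc39a7 and 23.8% of the Slc30a2 UMIs. These shares pool all control days, over which Lyz1-high cells ranged from 2.63% to 29.0% of a library, so they mix class with day.

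**Figure D2:**
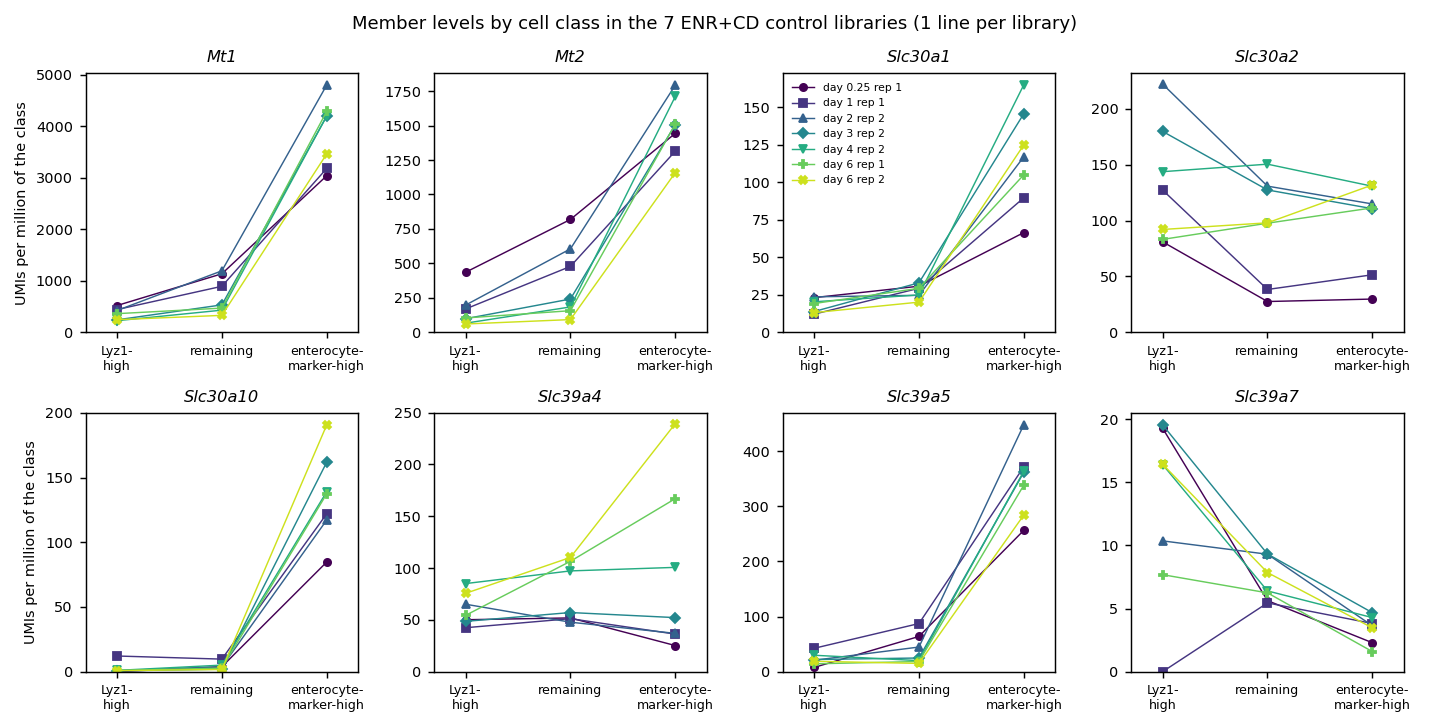
Level of each member in CPM of a class (vertical axes, starting at 0) in Lyz1-high, remaining and enterocyte-marker-high cells, with 1 line per ENR+CD control library. All 7 lines rise to the enterocyte-marker-high cells for Mt1, Mt2, Slc30a1, Slc30a10 and Slc39a5, and Slc39a4 is highest there in both day 6 libraries.

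Slc30a10 was at 84.8, 138 and 191 CPM (lowest, median and highest of 7 libraries) in enterocyte-marker-high cells and at 1.71, 3.76 and 9.71 in the remaining cells, so the classes did not overlap. Slc39a5 was at 257, 362 and 448 against 15.015, 24.8 and 87.4. These gave log2 differences of 5.47 ± 0.30 and 3.81 ± 0.32 (SE; adjusted p = 1.1e-08 and 4.04e-07, edgeR), higher in 7 of 7 libraries. Mt1 was at 3038, 4193 and 4797 CPM in enterocyte-marker-high cells against 330.0, 533 and 1194 in the remaining cells. Mt2 was at 1159, 1507 and 1793 against 92.8, 242 and 819, and Slc30a1 at 66.4, 117 and 165 against 20.1, 29.3 and 33.0. Each of these 3 genes was higher in 7 of 7 libraries without overlap of the classes, by 3.00 ± 0.29, 2.79 ± 0.35 and 2.47 ± 0.20 on the log2 scale (SE).

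Slc30a2 was higher in enterocyte-marker-high than in remaining cells by 0.47 ± 0.11 (SE; adjusted p = 0.00175, edgeR), in 7 of 7 libraries, but with library totals in place of scaling factors the difference was 0.04 (adjusted p = 0.754). Slc39a4 (0.48 ± 0.20, adjusted p = 0.0478, higher in 5 of 7) and Slc39a7 (-0.72 ± 0.30, adjusted p = 0.0475, lower in 7 of 7) lay near the threshold. Both were lost without either day 6 library, with adjusted p of 0.12 to 0.148 for Slc39a4 and 0.0707 to 0.131 for Slc39a7, and in DESeq2. On library totals Slc39a4 differed by 0.0624 (adjusted p = 0.787). Leaving out any 1 of days 2, 3, 4 and 6 also ended the Slc39a4 call (adjusted p = 0.0526 to 0.461), and any 1 day that of Slc39a7 (0.0504 to 0.173). In all 8 of 8 members passed, 7 higher and 1 lower, where 70.8% of genes passed, 26.6% higher and 44.2% lower, and the median difference of all genes was -0.33. On library totals 6 of 8 members passed, where 9355 genes passed, against 8564 of 12103 with scaling factors.

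Within the enterocyte-marker-high cells of control organoids, Slc39a4 had its own course. It was at 25.2, 36.2, 37.0, 52.2 and 101 CPM at days 0.25, 1, 2, 3 and 4 and at 167 and 239 at day 6. The day 6 level was 203 ± 51.2 (SD, n = 2), against 26.5 ± 7.21 (SD, n = 2) in such cells at day 0. The values of 167 and 239 rest on 210 and 69 UMIs of the gene, and those of day 0 on 11 and 19. In the remaining cells the same days gave 108 ± 2.63 and 52.5 ± 21.9 (SD, n = 2 each). No test over days was run within classes in control libraries.

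Lyz1-high cells were compared with all other cells of the 7 control libraries. Slc39a7 was at 0, 16.4 and 19.5 CPM (lowest, median and highest of 7) in Lyz1-high cells, against 5.45, 6.39 and 9.32 in the remaining cells, and the 0 came from day 1, where 3 UMIs among the 165034 of 29 such cells would be 18.2 CPM. Slc30a2 was at 81.0, 127 and 222 in Lyz1-high cells against 27.6, 97.9 and 150.4 in the remaining and 29.8, 111 and 132 in the enterocyte-marker-high cells. Slc39a7 was higher by 1.36 ± 0.24 on the log2 scale in 6 of 7 libraries, and Slc30a2 by 0.78 ± 0.15 in 7 of 7 (SE; adjusted p = 4.56e-04 and 6.91e-04, edgeR). On library totals Slc30a2 was higher by 0.44 (adjusted p = 0.0719). In CPM, without scaling factors, Slc30a2 was lower in Lyz1-high than in remaining cells at day 4 (144 against 150.4) and at day 6 (83.1 and 92.0 against 97.6 and 97.9), so its direction there comes with the scaling.

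Slc30a10 had 10 UMIs in all over the Lyz1-high cells of the 7 libraries and was lower there by 4.26 ± 0.35 (SE). Mt1, Mt2 and Slc39a5 were lower by 1.40 ± 0.19, 1.54 ± 0.17 and 1.54 ± 0.28, and Slc30a1 by 0.84 ± 0.17, each in 7 of 7 libraries. Against the remaining cells alone, without the enterocyte-marker-high cells, the differences were smaller: -0.53 for Mt1 (adjusted p = 0.0133), -0.74 for Mt2 (9.65e-04) and -1.21 for Slc30a10 (0.0309, edgeR). Slc30a1 (-0.12, adjusted p = 0.573) and Slc39a5 (0.03, adjusted p = 0.94) no longer passed. Slc39a4 differed by 0.08 ± 0.13 (adjusted p = 0.644), with a 95% confidence interval of -0.19 to 0.35. So 7 of 8 members passed against all other cells, 2 higher and 5 lower, where 41.3% of genes passed, 16.1% higher and 25.3% lower.

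The third question was the effect of KPT-330. Over the 15 libraries of days 0.25 to 6, with a term for day, Mt2 alone among the members passed the test. It stood at 1485, 912 and 1141 CPM with KPT-330 at days 0.25, 1 and 2, against 840.5, 557 and 934 in control. At day 3 it was at 621 and 860 against 416, and at day 4 at 426 against 252. At day 6 the conditions overlapped, with 131 and 240.5 against 153 and 279. After scaling, Mt2 was higher with KPT-330 at 6 of 6 days, by 0.18 to 1.16 on the log2 scale, as were 11.1% of all genes. The difference over all days was 0.72 ± 0.20 (SE; a 1.65-fold level; adjusted p = 0.0173, edgeR), and the call was lost without day 3 (0.63, adjusted p = 0.0729), without day 4 (0.65, adjusted p = 0.0532) and on library totals (0.44, adjusted p = 0.0651). Library totals moved the median difference of all genes from -0.0023 to -0.27, and the genes passing from 1841 higher and 1820 lower to 470 higher and 4900 lower.

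Mt1 differed by 0.47 ± 0.19 (adjusted p = 0.0711, higher at 5 of 6 days), Slc30a1 by 0.35 ± 0.13 (0.0661, 5 of 6 days), Slc39a4 by 0.26 ± 0.09 (0.0534, 4 of 6) and Slc30a10 by 0.64 ± 0.28 (0.102, 3 of 6). For Slc39a5 (0.34 ± 0.20), Slc39a7 (0.24 ± 0.16) and Slc30a2 (0.14 ± 0.09) the adjusted p was 0.225 to 0.293. Slc39a4, Slc39a7 and Slc30a2 had the opposite sign on library totals. Mt1 and Slc30a1 passed without day 6 (0.64 and 0.46, adjusted p = 0.00967 and 0.0213) and without replicate 1 of control or replicate 2 of KPT-330 at day 6 alone (0.43 to 0.61, adjusted p = 0.0061 to 0.0166), and Slc30a1 also without replicate 1 of KPT-330 at day 3 (0.38, adjusted p = 0.049). Slc30a10 passed without replicate 2 of KPT-330 at day 6 (0.82, adjusted p = 0.0161), Slc39a4 without day 1 (0.29, adjusted p = 0.0479), and Mt1 in DESeq2 (adjusted p = 0.0363). The count was 1 of 8, higher, where 28.6% of 12812 genes passed, 14.4% higher and 14.2% lower, and the median of the members was 0.34 against -0.0023 for all genes. Slc30a10 and Slc39a5 had their widest gaps in log2 terms at day 4, at 38.8 and 80.1 CPM with KPT-330 against 12.8 and 45.8 in control. Enterocyte-marker-high cells made up 12.3% of cells with KPT-330 at that day against 3.69% in control, and their share was higher with KPT-330 at the other days too: 5.56% against 5.26% at day 0.25, 17.3% against 8.56% at day 1, 37.9% against 25.3% at day 2, 27.3% and 30.8% against 9.43% at day 3, and 3.30% and 8.96% against 2.67% and 6.63%, which overlapped, at day 6. Lyz1-high cells made up 3.21% to 61.5% of cells with KPT-330 and 2.63% to 29.0% in control. The 8 enterocyte genes together ranged from 1804 to 19650.1 CPM with KPT-330 and from 1914 to 11776 in control, with none at 0 in any library. The part of the cell mix in the KPT-330 differences was not tested. Within Lyz1-high cells Slc30a10 differed by 1.63 ± 0.72 (SE; adjusted p = 0.256, edgeR). This came from 10 UMIs in 1636 cells of control and 44 in 2939 cells with KPT-330. Of the 44, 23 were in replicate 1 of day 6, the library apart in Lyz1, and 12 in replicate 1 of day 3. The levels overlapped, at 0, 0.821 and 12.119 CPM in control (lowest, median and highest of 7 libraries). With KPT-330 they were 0, 0.944 and 8.496 (of 8). Slc30a10 differed by -0.18 ± 0.13 in enterocyte-marker-high and -0.45 ± 0.54 in remaining cells (adjusted p = 0.597 and 0.643, edgeR). Within classes Slc39a5 differed by -0.26 ± 0.10 in enterocyte-marker-high cells and by -0.54 ± 0.18 in remaining cells (adjusted p = 0.185 and 0.0615, edgeR), against 0.34 in sums over all cells, and the difference in remaining cells passed without replicate 1 of KPT-330 at day 6, replicate 1 at day 3 or day 0.25 (-0.67 to -0.61, adjusted p = 0.0301 to 0.0428), on library totals (-0.66, adjusted p = 0.0181), with no filter on low counts (-0.56, adjusted p = 2.45e-04) and with an enterocyte limit of 50 (-0.54, adjusted p = 0.0236).

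At day 6 alone 0 of 8 members passed, where 1.25% of genes did. None of the 8 had an unadjusted p under 0.05 in edgeR, against 2141 of all 13455 genes, and DESeq2 called 0 members and 195 genes. For a change of the KPT-330 difference along days, edgeR called 0 of 8 members and 0% of all genes, with 0 members at an unadjusted p under 0.05, against 1343 of all genes, and DESeq2 called 0 members and 62 genes.

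**Figure D3:**
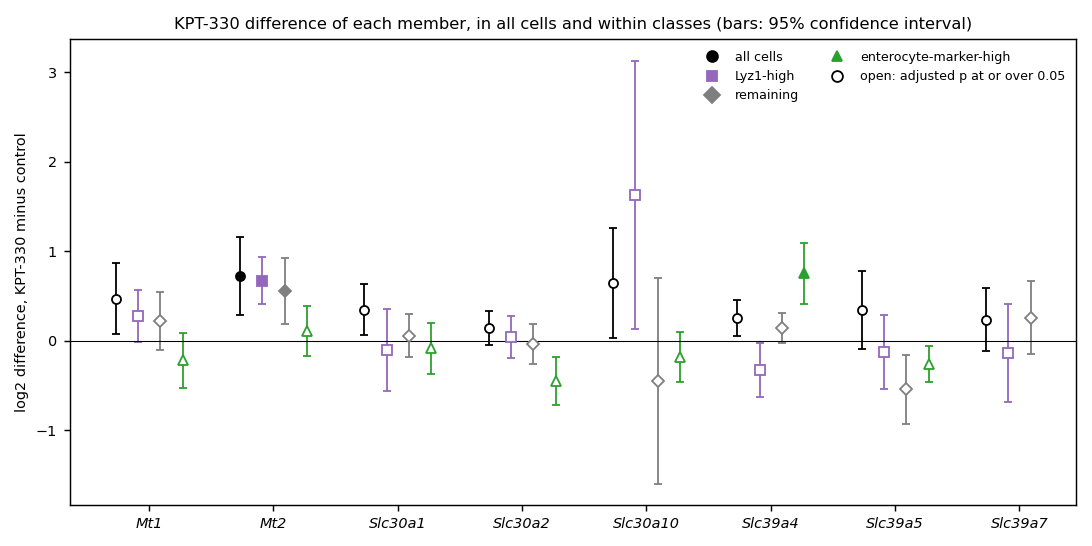
Log2 difference of each member between KPT-330 and control (vertical axis), over all cells (black circles) and within Lyz1-high (purple squares), remaining (grey diamonds) and enterocyte-marker-high cells (green triangles), with 95% confidence intervals and filled symbols for an adjusted p under 0.05 in edgeR. Mt2 passes in all cells (0.72), Lyz1-high cells (0.67) and remaining cells (0.55), and Slc39a4 in enterocyte-marker-high cells (0.75).

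Within Lyz1-high cells Mt2 was at 60.8, 105 and 436 CPM in control (lowest, median and highest of 7 libraries) and at 87.8, 135 and 809 with KPT-330 (of 8). By day, the level with KPT-330 was 809 against 436 at day 0.25, 217 against 169.7 at day 1, 360.2 against 198 at day 2, 130.2 and 139 against 99.0 at day 3, and 95.5 against 66.6 at day 4. At day 6 the values were 87.8 and 131 against 60.8 and 105, so that the conditions overlapped at day 6 alone. Mt2 was higher by 0.67 ± 0.12 (SE; adjusted p = 0.00443, edgeR), the only member of 8 to pass, where 3.30% of genes did. In the remaining cells it was higher by 0.55 ± 0.18 (adjusted p = 0.048), again 1 member of 8, where 12.9% of genes passed. That call was lost on library totals (0.39, adjusted p = 0.0865), where Slc39a5 passed instead, without any 1 of days 0.25, 1, 3 and 4 (0.50 to 0.58, adjusted p = 0.0844 to 0.152), and without replicate 2 of control day 6, either replicate of KPT-330 day 3 or replicate 1 of KPT-330 day 6 (0.40 to 0.54, adjusted p = 0.0667 to 0.104). Without replicate 1 of KPT-330 at day 6, the library apart in Lyz1, Mt2 was higher by 0.65 over all cells (adjusted p = 0.0483) and by 0.61 in Lyz1-high cells (adjusted p = 0.00758, edgeR). In enterocyte-marker-high cells the Mt2 difference was 0.11 ± 0.13, with a 95% confidence interval of -0.17 to 0.39, and without day 0.25 it was -0.0251. Whether the Mt2 difference depended on the class was tested for Lyz1-high against all other cells, where it did not pass (-0.31 ± 0.34, adjusted p = 0.773).

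**Figure D4:**
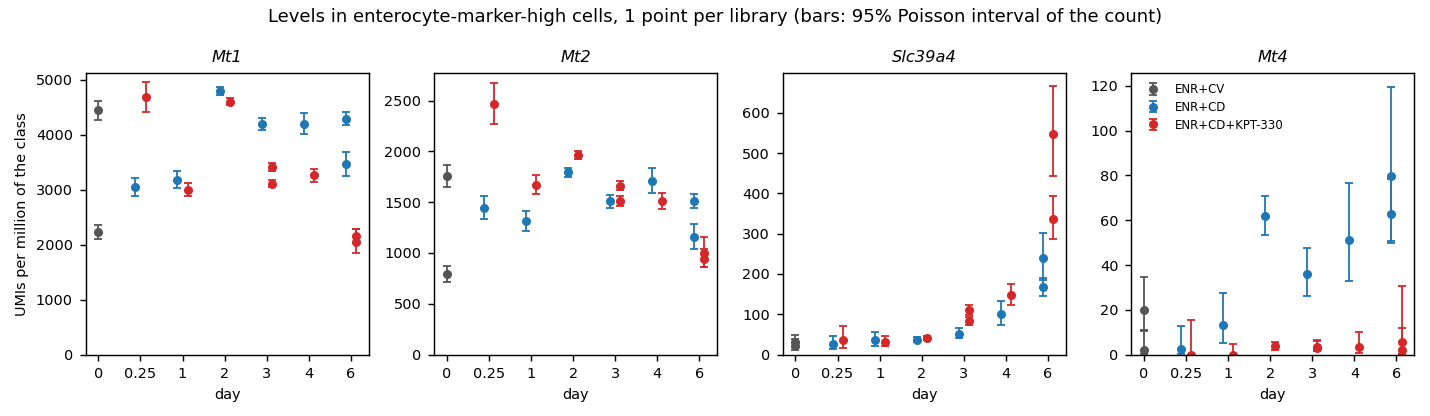
Levels of Mt1, Mt2, Slc39a4 and Mt4 in enterocyte-marker-high cells in CPM of the class (vertical axes, starting at 0) against day (evenly spaced categories), with 1 point per library, colours by condition, and bars for the 95% Poisson interval of the count, which covers counting error only. Slc39a4 is highest with KPT-330 at day 6 (337 and 547), and Mt4 stays at or below 5.52 in every KPT-330 library.

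Within enterocyte-marker-high cells Slc39a4 passed, 1 member of the 7 tested, where 3.42% of genes did, and Slc39a7 was too low to be tested. With KPT-330 Slc39a4 was at 37.1, 31.5 and 40.2 CPM at days 0.25, 1 and 2, close to the 25.2, 36.2 and 37.0 of control. At day 3 it was at 82.7 and 109 against 52.2, at day 4 at 147 against 101, and at day 6 at 337 and 547 against 167 and 239. From day 3 on no KPT-330 library overlapped with control of the same day. The difference over all days was 0.75 ± 0.16 (SE; a 1.68-fold level; adjusted p = 0.0117, edgeR), and it was 0.49 without day 6 (adjusted p = 0.148), 0.60 with an enterocyte limit of 50 in place of 100 (adjusted p = 0.0518) and 0.75 without replicate 1 of KPT-330 at day 6 (adjusted p = 0.0205). The day 6 values, in the order given, come from 82 and 33 cells with KPT-330 and 84 and 37 in control. Slc30a2 in the same class was at 37.8, 79.6 and 84.5 CPM with KPT-330 (lowest, median and highest of 8) and at 29.8, 111 and 132 in control, which overlapped. Its difference was -0.45 ± 0.13 (SE; adjusted p = 0.0608, edgeR), and it passed on library totals, without day 0.25 and with an enterocyte limit of 50 (-0.51, -0.50 and -0.51, adjusted p = 0.0249 to 0.0292), in the last as the 1 member called. In Lyz1-high cells Slc39a4 stood at 42.4 to 85.0 CPM in control and at 24.1 to 55.1 with KPT-330, a log2 difference of -0.33 ± 0.14 (adjusted p = 0.256).

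The difference between Lyz1-high and other cells was itself compared with and without KPT-330. For Slc39a4 it was lower with KPT-330 by 0.86 ± 0.19 (SE), with an unadjusted p of 2.17e-04 and an adjusted p of 0.113 in edgeR, and with an adjusted p of 0.0336 in DESeq2. Without replicate 2 of KPT-330 at day 6 it passed in edgeR too (adjusted p = 0.0353), and against remaining cells alone the difference was -0.42 (adjusted p = 0.43). In edgeR 0 of 8 members passed, where 0.0167% of genes passed. An unadjusted p under 0.05 was found for 2 members, against 1306 of all 11989 genes. DESeq2 called 1 of 8 members and 33 genes.

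Beyond the 8 members, 21 further genes of zinc handling were followed: the other SLC30 and SLC39 transporters, Mt3, Mt4 and Mtf1. Of the 18 tested, 5 were higher with KPT-330 and 2 lower, where 14.4% of all genes passed higher and 14.2% lower. Mt4, a metallothionein known from stratified epithelia, fell by 2.70 ± 0.33 on the log2 scale (SE; adjusted p = 2.68e-04, edgeR). Its counts were low. In control libraries it had 7, 15, 216, 50 and 28 UMIs at days 0.25 to 4 and 105 and 28 at day 6, and with KPT-330 it had 3, 2, 20, 12, 9 and 3 UMIs in the libraries of days 0.25 to 4 and 1 each at day 6. In control 85.5% of its UMIs lay in enterocyte-marker-high cells, where it was higher than in the remaining cells by 5.04 ± 0.35 (SE; adjusted p = 7.63e-08).

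In enterocyte-marker-high cells Mt4 was at 2.29, 13.4, 61.8, 35.8 and 51.4 CPM at days 0.25, 1, 2, 3 and 4 of control and at 62.8 and 79.8 at day 6. With KPT-330 it was listed at 0 at days 0.25 and 1, where 3 UMIs would be 12.4 and 3.78 CPM, and at 2.096 to 5.52 in the 6 later libraries. From day 2 on the conditions did not overlap. The difference was -3.80 ± 0.22 (SE; adjusted p = 1.2e-09, edgeR), and -3.73 without replicate 1 of KPT-330 at day 6. In the same cells and libraries Mt1 was at 2055, 3184 and 4680.2 CPM with KPT-330 (lowest, median and highest of 8) against 3038, 4193 and 4797 in control, a log2 difference of -0.22 ± 0.15 (adjusted p = 0.547), and Mt2 at 943, 1588 and 2466 against 1159, 1507 and 1793.

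Of the other genes that passed, Slc39a8 and Slc39a14, importers of zinc and manganese, were higher with KPT-330 by 0.52 ± 0.07 and 0.43 ± 0.09, Slc39a11 by 0.57 ± 0.10, and Slc30a4 and the Golgi transporter Slc30a7 by 0.41 ± 0.11 and 0.31 ± 0.07 (SE; adjusted p = 3.93e-04 to 0.0126, edgeR). On library totals Slc30a4, Slc30a7 and Slc39a14 lost their calls (0.14, 0.05 and 0.16), and without day 6 Slc30a4 and Slc30a7 did (0.33 and 0.25, adjusted p = 0.0719 and 0.0515). Within classes Slc39a8 passed in Lyz1-high and in remaining cells (0.50 and 0.47, adjusted p = 0.0443 and 7.94e-04, edgeR). Slc39a11 and Slc30a7 passed in remaining cells alone (0.54 and 0.35, adjusted p = 0.00373 and 0.0197, edgeR). Slc39a14 and Slc30a4 passed in no class (adjusted p = 0.0788 to 0.705 and 0.123 to 0.995, edgeR). Slc39a2 fell by 1.28 ± 0.30 (adjusted p = 0.00808), from counts of 10 to 61 UMIs in control libraries and 1 to 17 with KPT-330, and without day 3 it was at -0.99 (adjusted p = 0.0734). The median of the 18 was 0.14. Of the list, 9 of 17 tested passed between Lyz1-high and other cells, 7 higher and 2 lower, where 41.3% of all genes passed, 16.1% higher and 25.3% lower. Between enterocyte-marker-high and remaining cells 11 of 17 passed, 6 higher and 5 lower, where 70.8% of all genes did, 26.6% higher and 44.2% lower.

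Over the 17 libraries, the genes most like the members other than Slc30a2 in log2 level were the following, as a description with no test, since the libraries share days and cell mix. Mt1 and Mt2 were each the other's nearest gene (Pearson r = 0.96). Slc39a5 was nearest to the carboxylesterase Ces2a (r = 0.98), with Ces2e and Ano6 next, and Slc30a10 to Fmo5 (r = 0.975), with Rdh7 and Cyp2b10 next. Slc30a1 was nearest to Adtrp (0.95), Itfg3 and Tmem236 (0.93 each). Slc39a7 was nearest to Sec16a, Nrbp1 and Cdc42bpg (0.94, 0.94 and 0.93) and Slc39a4 to Nupr1, Clu and Ly6e (0.92 each). Msra and Zdhhc7 followed for Mt1 and Lzic and Dbi for Mt2. Among the members, Slc39a5 went with Mt1 (r = 0.88) and Slc39a7 with Slc30a2 (0.80), while Slc39a4 and Mt2 ran against each other (r = -0.57).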

How the data were processed

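Single-cell RNA of organoids was measured by Seq-Well S3 in 17 libraries. Per the methods, the authors demultiplexed with bcl2fastq, aligned reads to mm10 with STAR and counted UMIs with the Drop-seq pipeline, of which the sources give differing versions. The deposited values are counts of UMIs per gene and cell, neither divided nor normalised, and the cells used were those named in the authors' table of cells after quality control (at least 500 genes, at most 30000 UMIs and at most 35% mitochondrial UMIs, which every kept cell met). Per the methods, the authors had also removed low outliers in housekeeping genes, and doublets found by inspection and with DoubletFinder. Columns of the authors' table of cells that were not used numbered 0, while barcodes outside that table were left out. No further doublet caller was run here, and 47 cells passed both the Lyz1 and the enterocyte limit. Of these, 33 were in replicate 1 of KPT-330 at day 6, and no other library held more than 7.

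The members and lists were chosen with earlier results of these data known. Counts were summed per library, or per library and class with at least 20 cells, in Python 3.11.15 (pandas 2.3.3). Differences were tested with edgeR 4.0.16 (R 4.3.3; TMM scaling, filterByExpr, quasi-likelihood test, two-sided) over all genes, with Benjamini-Hochberg adjusted p under 0.05 called. The SE is the log2 difference over the square root of F. The time course and day 6 comparisons were fitted over all 17 libraries, KPT-330 against control with a term for day over 15, and class comparisons with a term for library. Alternatives were DESeq2 1.42.0, its size factors, library totals, no filter on low counts, a minimum of 1000 genes per cell and other class limits. Others were a replicate block, the untreated libraries alone and a spline of day. Each library of a condition and day with 2 libraries was left out in turn. Each day was left out only in comparisons of KPT-330 over days or between classes. Genes listed in every library were an alternative chosen after seeing the data. The procedure was tested on simulated data.

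The genes named are the 8 members, those of a list of 21 further zinc genes that passed the test of KPT-330 against control, the 3 genes with the highest correlation with each member over 17 libraries, and Xpo1. Intervals on levels cover counting error only. Figures were drawn with matplotlib 3.10.9. The genes nearest to Slc30a2 are not reported here.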

Additional observations from a re-analysis of the deposited data

How the results depend on the processing

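Among counts of members recomputed under alternatives, 188 stayed within 1.5 times the reported count and 33 did not, and among differences of single genes 945 kept direction and call, 59 lost a call, 34 gained one and 9 changed sign. For KPT-330 against control (1 of 8), the count was 0 on library totals, 5 with no filter on low counts, 2 in DESeq2 and 3 in cells with at least 1000 detected genes. On library totals the KPT-330 differences of Slc30a2 (-0.13), Slc39a4 (-0.0198) and Slc39a7 (-0.0405) changed sign. So did the Slc39a4 difference between Lyz1-high and other cells of control libraries (-0.31). For the dependence of the Lyz1-high difference on KPT-330 the count was 1 with no filter and 1 in DESeq2. Within enterocyte-marker-high cells it was 2 on library totals, and with an enterocyte limit of 50 it was 1, Slc30a2 in place of Slc39a4, and within remaining cells it was 2 with no filter or an enterocyte limit of 50, and 0 with at least 1000 genes per cell or a limit of 200. Against cells without the enterocyte-marker-high class, Slc39a5 in Lyz1-high cells was at 0.0306 and the dependence of the Mt2 difference on KPT-330 at 0.10. The causes were not tested.

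For the time course, leaving out 1 of the 2 libraries of a replicated day gave 2 to 6 members. For day 6 against day 0 it gave 2 to 5. Days with 1 library were not left out of these comparisons. Leaving out 1 library of a replicated day, or 1 day, gave 0 to 4 for KPT-330 against control and 0 to 1 for its change along days. The count was 0 to 1 for its dependence on class, 0 to 2 within enterocyte-marker-high cells and 0 to 1 within remaining cells. Some differences changed sign on leave-out. Slc30a1 at day 6 against day 0 ranged from -0.12 to 0.39, and Slc39a4 in Lyz1-high against other cells from -0.0325 to 0.32. Mt2 with KPT-330 in enterocyte-marker-high cells ranged from -0.0251 to 0.26.

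With library totals, genes passing were 761 higher and 6343 lower in Lyz1-high cells (1945 and 3060 with scaling factors), 2158 and 7197 in enterocyte-marker-high cells (3217 and 5347) and 393 and 1722 with KPT-330 in remaining cells (876 and 706). Same-numbered libraries correlated by 0.01 to 0.37 in their deviations over 6 pairs of groups. The 0.37 was between control and KPT-330 at day 6, the groups that the day 6 test compares, and the other pairs lay between 0.01 and 0.11. The numbers were not taken as pairs in the main fits. With the replicate number as a block, the counts were 5, 4, 1, 0 and 0 for the comparisons over all cells and 1, 2 and 2 with KPT-330 within Lyz1-high, enterocyte-marker-high and remaining cells, where Slc30a2 (-0.42, adjusted p = 0.0389) and Slc39a5 (-0.59, adjusted p = 0.0193) were the members added in the latter 2. Depth limits Slc39a7 and Mt4, with few UMIs per library and class, and the Lyz1-high class at days 0.25 and 1, with 29 to 39 cells.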
